A study of Drosophila melanogaster with 12 samples.

Results

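The 5 contact loops described here are pairs of loci on the same chromosome arm that met more often than other loci at their separation although more than 500 kb of DNA lies between them. They were chosen from the contact map of untreated PnM cells, as anchor pairs of 8 kb with an excess of Hi-C read pairs, so that their contact level in untreated cells is a description and no test of it is given. In dm3 coordinates, loop A joins 2L:920001-928000 with 2L:2608001-2616000 over 1688 kb, and loop B joins the same first anchor with 2L:2672001-2680000 over 1752 kb. Loop C joins 2L:20120001-20128000 with 2L:21680001-21688000 over 1560 kb. Loop D joins 3L:14008001-14016000 with 3L:14760001-14768000 over 752 kb, and loop E joins 3R:24624001-24632000 with 3R:25200001-25208000 over 576 kb. They are 5 of 9169 pairs of 120 kb windows, the other 9164 being a grid of block pairs that are 480 to 1800 kb apart on 2L, 2R, 3L and 3R and overlap no loop. No gene annotation of this build was used here, so the anchors are given by position alone.

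PnM is a clonal, male, diploid *Drosophila melanogaster* cell line, grown out of embryos of a cross between a DGRP-057 female and a DGRP-439 male, and single-nucleotide differences between these inbred strains tell its maternal and paternal homologs apart. Haplotype-resolved Hi-C was analysed in 4 groups of 2 replicates: Slmb RNAi, in which double-stranded RNA targeted Slmb, the substrate-recognition subunit of an SCF ubiquitin ligase; TopII RNAi, in which it targeted topoisomerase II, the enzyme that passes 1 DNA duplex through another; mock RNAi, which received water without RNA; and untreated cells. Cells of all groups were fixed with 1% formaldehyde for 10 min. The line is a single clone, and the depth of the knockdowns was not measured in these files. The study's methods call the replicates of each RNAi treatment biological replicates, and p-values measure the spread between these samples.

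Hi-C counts how often DNA fragments that lay close together in the nucleus were ligated to each other, and a loop appears as a patch of the contact map that is denser than its surroundings. In most animals homologous chromosomes lie apart outside meiosis, whereas in *Drosophila* they are paired in most somatic cells, so that a loop can be counted within a homolog (*cis*) or between the homologs (*trans*-homolog, *thom*). Some of the longest contacts in *Drosophila* cells are known to join loci bound by Polycomb proteins; binding at the anchors was not tested.

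The libraries held 11322972 and 10190412 read pairs for Slmb RNAi, 11635751 and 11340208 for TopII RNAi, 11038225 and 12077016 for mock RNAi, and 37284329 and 38465767 for untreated cells. Of the autosomal pairs, 7.79% to 10.4% joined different arms in the 8 libraries, and these shares of the 4 groups overlapped. The 3R arm carried more maternal than paternal read sides, with a maternal to paternal ratio of 1.52, against 1.00 on 2L and 0.992 on 3L, and loop E lies on 3R. The level of a loop was the number of pairs whose sides lay within 60 kb of its anchors, divided by the number expected from the mean of all usable 4 kb pixels of the same library, class, arm and separation. This quotient is 1 where a region meets as often as the arm's average at that separation. Masking of bins with few reads left 667 of 900 pixels usable for loop A, 841 for B, 644 for C, 754 for D and 780 for E.

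In untreated cells the loops spanned more than an order of magnitude in level, in *thom* and in *cis* alike. Loop A had *thom* quotients of 27.0 and 28.4 in the replicates and *cis* quotients of 26.1 and 25.7. Loop B had 27.4 and 27.6 in *thom* and 25.9 and 25.5 in *cis*. Loop C followed with 11.2 and 11.4 in *thom* and 11.0 and 10.8 in *cis*. The ranges of A and B overlapped, and both lay far above C in each replicate. Loop E had 4.47 and 4.50 in *thom* and 5.39 and 5.13 in *cis*. Loop D was lowest, with 1.70 and 1.56 in *thom* and 1.63 and 1.72 in *cis*. The pooled counts behind these values were 3532 *thom* pairs where 127 were expected for A, 4216 where 153 were expected for B, 1318 where 117 were expected for C, 970 where 216 were expected for E, and 334 where 206 were expected for D. The exact 95% Poisson interval of the pooled *thom* quotient, which covers counting error only, was 10.7 to 11.9 for C and 1.45 to 1.81 for D.

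**Figure D1:**
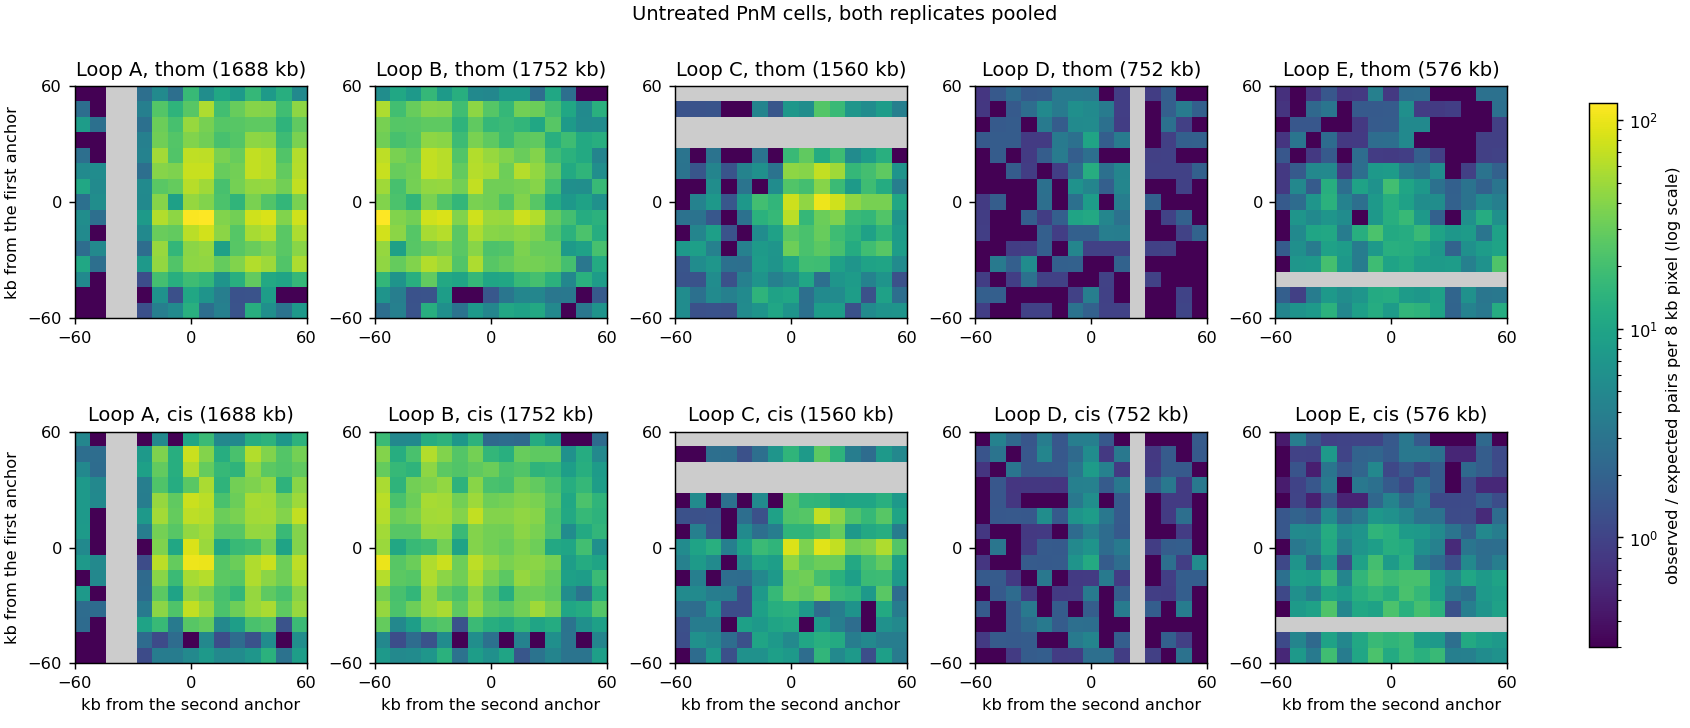
Maps of each loop in untreated cells, both replicates pooled, with *thom* pairs in the top row and *cis* pairs in the bottom row. The axes give kb from the first and the second anchor, and the colour gives observed over expected pairs per 8 kb pixel on a log scale. Loops A and B show a broad patch, C a compact one around its centre, E a weaker patch and D a few pixels near the centre.

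The other windows of the grid set these levels in context. Among 8698 of them measured in *thom* in untreated cells, the median quotient was 0.891 and the highest was 5.21. None of these windows reached the quotient of A, B or C in *thom* or *cis*, in any of the 4 groups. The *thom* quotient of E was reached by 3 of them, and those at 5.21 and 4.55 lie on 2L close to the windows of A and B. Loop D did not stand out at this window size, since 751 of these windows had a *thom* quotient at least as high. The name of a loop therefore rests, for D, on the pixels close to its centre, which are described next. The anchors were chosen for an excess there in the same cells, so these pixels describe D and are no separate support.

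The excess was highest at the centre for A, C, D and E, but not for B, and its width differed between the loops. Within 12 kb of the centre, the *thom* quotient in untreated cells was 54.6 for A, 44.4 for B, 32.6 for C, 11.2 for E and 5.52 for D. Between 40 and 60 kb from the centre it was 20.1 for A, 19.3 for B, 6.83 for C, 3.61 for E and 1.26 for D. The centre was thus 2.72 ± 0.453 times the rim for A, 2.30 ± 0.0592 for B, 4.77 ± 0.0257 for C, 3.10 ± 0.409 for E and 4.38 ± 0.296 for D (SD, n = 2 replicates). For B the *thom* quotient was higher between 12 and 24 kb from the centre, at 47.3, than within 12 kb. Loops A and B were still many times above expectation at the rim of the window, while D had come down to near the average of its arm. In *cis* the quotients within 12 kb were 51.2, 39.6, 28.5, 12.0 and 4.82 for A, B, C, E and D, in the same order as in *thom*.

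**Figure D2:**
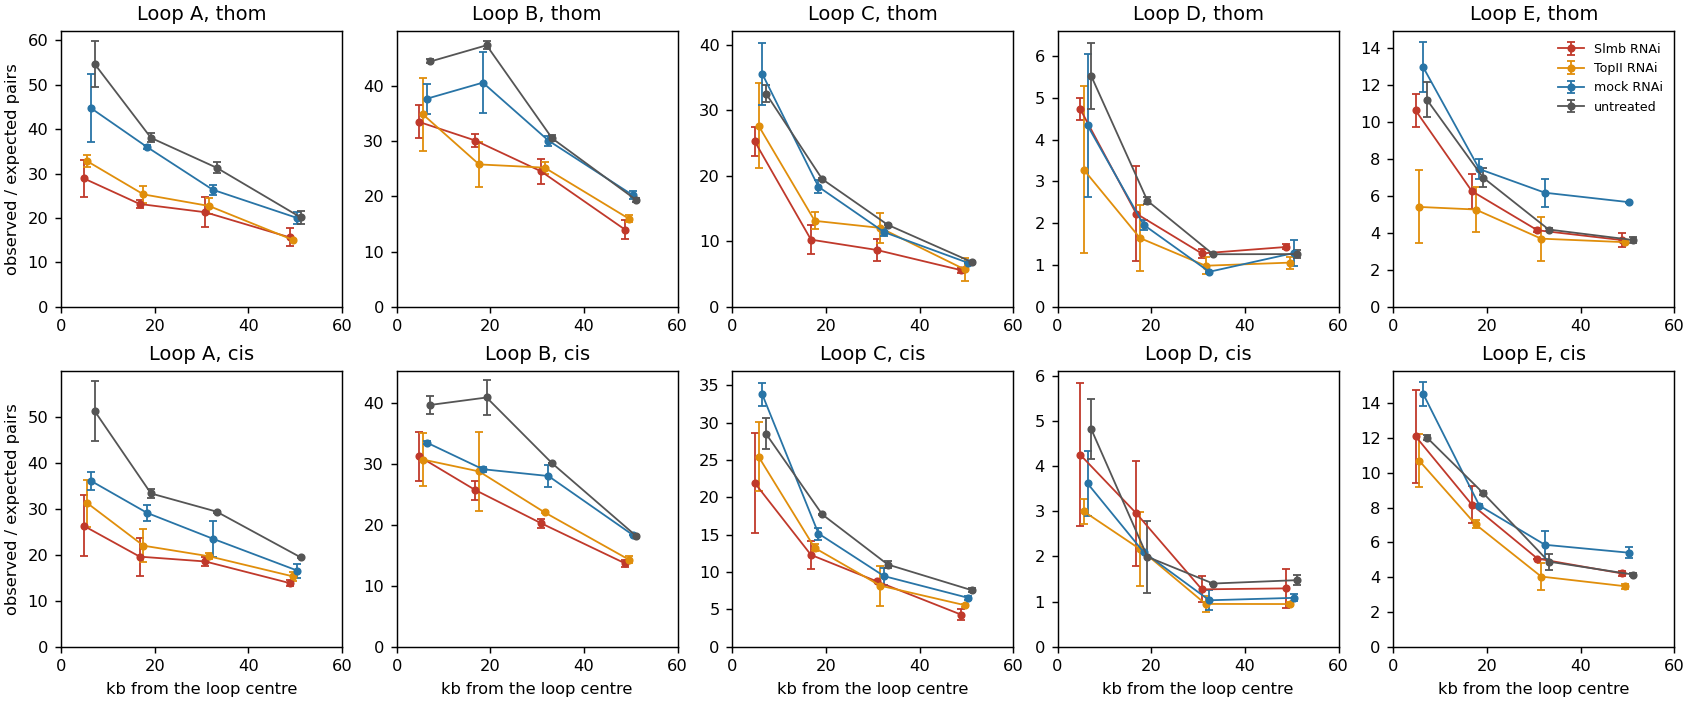
Observed over expected pairs against distance from the loop centre in kb, for each loop, with *thom* in the top row and *cis* in the bottom row. Points are pooled replicates of each group with bars of 1 SD over 2 replicates; in untreated cells the curves fall from the centre outwards for A, C and E, level off beyond 24 kb for D, and for B are higher between 12 and 24 kb than within 12 kb.

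Loops A and B are not separate measurements. They share their first anchor, and their second windows overlap by 14 of 30 bins of 4 kb, so that 406 usable pixels belong to both. In untreated cells 5157 pairs lay in both windows, which is 73.5% of the 7016 pairs of A and 61.5% of the 8380 pairs of B. Over *thom* and *cis* pairs together, the 8 kb pixel with the most pairs, called the highest pixel here, was the same for both. It joined 2L:912001-920000 with 2L:2616001-2624000 and held 181 pairs where 1.65 were expected, 110 times the expected number. TopII RNAi and mock RNAi libraries had their highest pixel at the same place, with 32 and 48 pairs. In Slmb RNAi libraries it lay 24 kb farther along both axes, at 2L:936001-944000 with 2L:2640001-2648000, with 40 pairs. Taken by class, the highest pixel held 18 to 29 pairs in the RNAi groups. Its place differed between *thom* and *cis* in each of them, so no shift by Slmb RNAi is read from it.

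Seen from the shared first anchor, both partners lay in 1 continuous stretch. Of the 8 kb bins downstream of 2L:920001, a run of 19 bins from 2592001 to 2744000, 152 kb in length, held at least 5 times the expected pairs in untreated cells, 668 pairs in all. The bins of the second anchors of A and B held 53 and 52 of them, where 0.799 and 1.52 were expected. Seen from the second anchor of A, the run was 248 kb long, from 848001 to 1096000, with 759 pairs. Seen from that of B, it was 96 kb long, from 880001 to 976000, with 568 pairs. The data thus show 1 broad patch in which A and B are named positions.

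**Figure D3:**
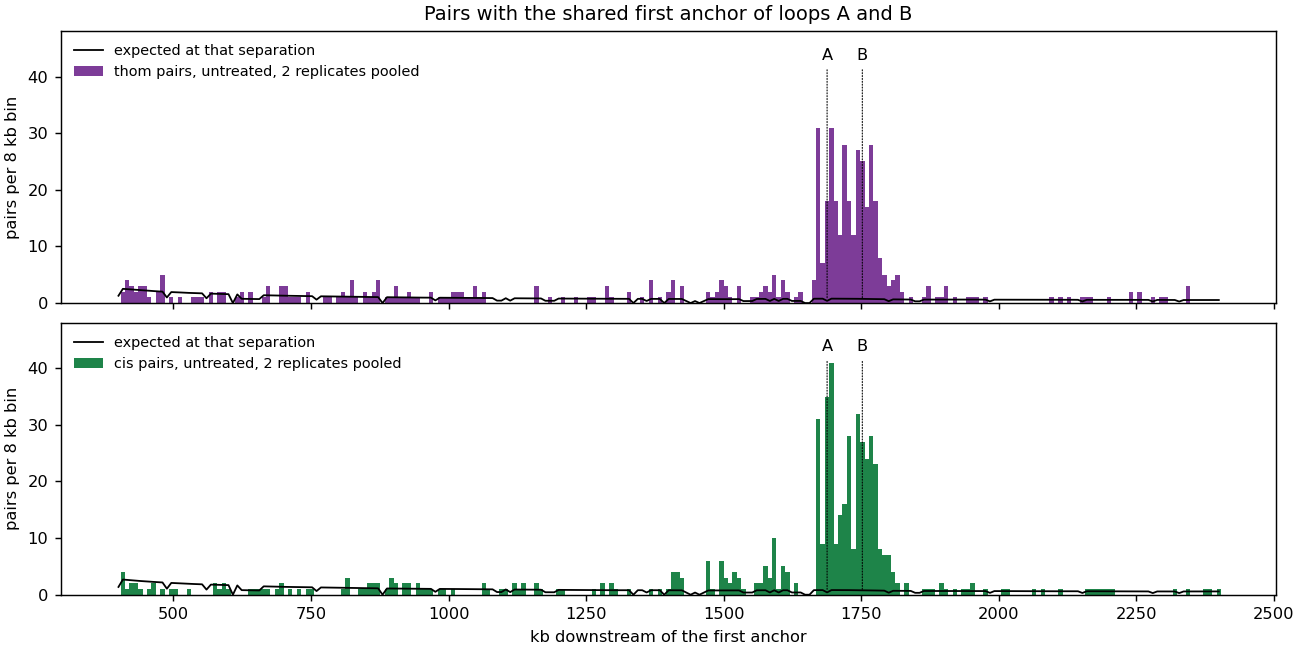
Pairs per 8 kb bin (bars) with the shared first anchor of loops A and B against distance downstream of it in kb, in untreated cells with 2 replicates pooled, for *thom* and *cis* pairs; the black line is the number expected at that separation. The bars rise above the line over a stretch of 152 kb that holds the partners of both loops.

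Over *thom* and *cis* pairs together, the highest pixel of loop C joined the 2 anchors themselves. It held 126 pairs in untreated cells, 82.1 times the expected number. The same pixel was highest in Slmb RNAi with 42 pairs, in TopII RNAi with 38 and in mock RNAi with 56. Among 598 bins within reach of the first anchor, the partner bin held the most pairs in both *thom* and *cis* in Slmb RNAi, TopII RNAi and mock RNAi, and in *cis* in untreated cells, whereas in *thom* it came second in untreated cells with 55 pairs against 59. The run of bins at 5 times the expected number was 112 kb long from either anchor. The highest pixel of E held 63 pairs, 22.4 times the expected number, and lay 16 kb upstream of its first and 8 kb upstream of its second anchor. The highest pixel of D held 26 pairs, 11.4 times the expected number, 8 kb upstream of its first anchor. From the first anchor of D, the run of enriched bins was the partner bin alone, with 17 pairs in untreated cells. In the mock RNAi libraries, which are shallower, that partner bin held 1 *thom* pair, and 1 pair cannot show whether the loop was present.

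In untreated cells each loop had a quotient above 1 in every separate haplotype class. For D this does not set it apart from the other windows, of which 687 had a *cis* quotient at least as high. Loop A had quotients of 24.8 for *cis*-maternal and 27.0 for *cis*-paternal pairs in untreated cells. For B these were 24.2 and 27.1, for C 11.3 and 10.5, and for D 1.64 and 1.71. Loop E was higher on the maternal homolog, at 5.86 against 4.07, and the maternal to paternal ratio was 1.46 and 1.42 in the untreated replicates. The ratio of E pointed the same way in every other library, with pooled values of 1.59 in Slmb RNAi, 1.80 in TopII RNAi and 1.27 in mock RNAi. Neither the partial maternal disomy of 3R nor its extra maternal reads were tested as the source of this ratio. The *thom* to *cis* ratio of quotients was 1.07 ± 0.0507 for A, 1.07 ± 0.0183 for B, 1.04 ± 0.0302 for C, 0.968 ± 0.0987 for D and 0.853 ± 0.0350 for E in untreated cells (SD, n = 2 replicates). The ratios of A to D lay within 10% of 1, and that of E was below 1 in both replicates.

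The *thom* pairs were also counted by order, that is, by which homolog carried the upstream anchor. The ratio of the quotient with the paternal homolog upstream to that with the maternal homolog upstream was 0.968 for A, 0.946 for B, 0.926 for D and 0.926 for E in untreated cells, and it was farthest from 1 for C, at 1.26. For C with the paternal homolog upstream the quotient in untreated cells was 12.6 (95% Poisson interval 11.7 to 13.5), and with the maternal homolog upstream it was 9.98 (9.19 to 10.8). The ratio of C was 1.22 and 1.30 in the untreated replicates. It was 1.07 pooled over Slmb RNAi, 1.09 over TopII RNAi and 0.998 over mock RNAi, and the difference between groups was not tested.

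The pairs at the loop centres did not pile up on a few positions. Within 20 kb of both anchors, untreated cells gave 1620 pairs for A, 1572 for B, 769 for C, 205 for D and 655 for E. The most frequent single position at an anchor took 0.509% to 2.44% of these pairs. No pair of positions occurred more than 1 time, which follows from the removal of duplicates before deposit. The 4 combinations of strands each took between 17.6% and 32.5% of the pairs. The share of pairs in which both sides had a mapping quality score of at least 30 was 27.7% for A, 25.8% for B, 22.4% for E, 14.1% for D and 8.19% for C, against 22.9% of all pairs at 500 to 1800 kb. Most pairs of every loop thus had a side below that score, and this share was largest for C. With only pairs of at least 30, its untreated *thom* quotient was 5.11 in place of 11.3, while that of A was 31.1 in place of 27.7. Loop C also lies where few reads map, and with the expected number scaled by the coverage of each bin its *thom* quotient was 27.0 and that of E 2.57. The level of C and E thus moved more than 1.5 times with these settings, and the order of C and A turned round under the coverage scaling, where A had 24.1.

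The 9 anchors were examined for homolog pairing and for domain boundaries. The *thom* to *cis* ratio of pairs close to the diagonal, a measure of how tightly homologs are aligned at a locus, was above the median of its arm at 6 of 9 anchors in untreated cells. It was 0.959 ± 0.0961 at the shared first anchor of A and B, 0.862 ± 0.136 at the second anchor of A and 0.677 ± 0.00356 at that of B, against a 2L median of 0.750. The anchors of C had 0.924 ± 0.0985 and 1.03 ± 0.136. The second rests on summed counts of only 135 in *thom* and 131 in *cis*. These were added over both 4 kb bins of the anchor, whose windows of 7 bins overlap. Many pairs thus entered more than 1 time, and the separate pairs are fewer. Those of D had 0.892 ± 0.0748 and 0.903 ± 0.0149, against a 3L median of 0.767. Those of E had 0.394 ± 0.0655 and 0.421 ± 0.00390, against a 3R median of 0.517 (SD, n = 2 replicates throughout). A boundary of insulation, where contacts across a locus are fewest, lay within 8 kb of 5 of 9 anchors, and 36.9% of all usable bins lay that close to one of the 1597 boundaries. For an anchor the nearer of its 4 kb bins was counted, whereas the 36.9% counts single bins, so the measure is more lenient for anchors. The count of 5 of 9 anchors is given as a description only.

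The anchors of different loops did not meet each other to a like degree. The 6 pairs of anchors that lie on 2L but belong to no loop and are far apart had quotients between 0.543 and 1.26 in untreated cells. The 24 pairs on different arms had quotients between 0.428 and 2.21, on 6 to 41 read pairs each. The highest of these joined the first anchor of A and B with both anchors of E, at 2.21 and 2.18, and these became 1.24 and 1.31 once the expected number was scaled by the coverage of both bins, a scaling added after these values were seen. With that scaling the 24 pairs ranged from 0.574 to 1.58, while the loops ranged from 1.94 to 25.4.

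Peaks were also called at 8 kb in the untreated pool, from *cis* and *thom* pairs together, to place the limit of 500 kb. With a local background that was the highest of 4 (ring, corner, row and column around the pixel), 802 peaks were called among 2495729 pixels, with a median separation of 112 kb. Of these, 6 were over 500 kb: 1 each near A, B, C and E, and 2 that belong to none of the 5 loops. These 2, 2L:568001 with 2L:1152001 over 584 kb and 3L:6168001 with 3L:6736001 over 568 kb (starts), rested on 13 and 16 pairs in the peak pixel and had *thom* quotients of 1.10 and 1.10 in 120 kb windows. Just under the limit, at 496 kb, were 2L:3696001 with 2L:4192001 and 2L:5384001 with 2L:5880001, with *thom* quotients of 1.78 and 1.77. Loop D was not called. The form of the background was chosen after a first form, the full ring alone, had been seen to give 2387 peaks, of which 118 were over 500 kb; that form gave a peak within 60 kb of both anchors of all 5 loops. How many long peaks there are besides these 5 thus depends on the background, and the peak calls are no independent support for their choice.

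The first comparison asked how the loops stand after RNAi against Slmb, which is known to limit condensin II by targeting its subunit Cap-H2 for degradation. Contacts across the patch of A and B were 22.3% to 24.6% lower in Slmb RNAi than in mock RNAi, in *thom* and in *cis*, and *thom* contacts of E were lower too. Loop A had *thom* quotients of 17.7 and 20.6 in Slmb RNAi, against 24.4 and 26.3 in mock RNAi. Loop B had 18.9 and 21.5 in Slmb RNAi, against 26.0 and 27.2 in mock RNAi. Both Slmb RNAi libraries lay below both mock RNAi libraries for either loop. Loop E had 4.26 and 4.48 in Slmb RNAi, against 6.37 and 6.23 in mock RNAi, again without overlap.

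In limma across all 8559 windows tested, the log2 change of *thom* contacts was −0.41 ± 0.0710 for A (SE; adjusted p = 0.00163), −0.40 ± 0.0627 for B (adjusted p = 0.000264) and −0.53 ± 0.105 for E (adjusted p = 0.0150). These 3 of the 5 loops passed the threshold of 0.05, and 0.0351% of all windows were called lower, which is these 3 windows and no other. A and B belong to 1 patch and are not separate results. All counts and medians over the 5 loops, here and below, enter both. Loop C had 7.96 and 8.00 in Slmb RNAi, against 11.1 and 10.8 in mock RNAi, and its log2 change of −0.45 did not pass (limma adjusted p = 0.0821). Loop D had 1.58 and 1.73 in Slmb RNAi, against 1.57 and 1.23 in mock RNAi, a log2 difference of 0.24 with a 95% interval of −0.14 to 0.63. In *cis*, A had 16.4 and 16.9 in Slmb RNAi, against 21.7 and 21.1 in mock RNAi, and B had 18.0 and 18.0, against 23.7 and 23.0. Their log2 changes were −0.36 ± 0.0719 (limma adjusted p = 0.00570) and −0.37 ± 0.0641 (limma adjusted p = 0.000310), and they were the 0.0234% of windows called lower in *cis*. The *cis* differences of C (−0.40), E (−0.24) and D (0.32) on the log2 scale did not pass.

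The size of these changes was not unusual among the windows, but their counts were. The median *thom* log2 change of the 5 loops, with the overlapping A and B both entered, was −0.41. Over the other 8554 windows the median was 0.01, with the 5th and 95th percentile at −0.55 and 0.59. A *thom* change at least as low as that of A occurred in 822 of these windows. No other window held as many *thom* pairs as A or B in any group, so that the spread the test assigns to them is read from the sparse end of its trend. The calls depended on single libraries: without Slmb RNAi replicate 1 the *thom* changes were −0.30 for A, −0.31 for B and −0.49 for E with none called (limma adjusted p = 0.293, 0.148 and 0.148), without mock RNAi replicate 2 only B was called, and without mock RNAi replicate 1 E was lost. Both *cis* calls were lost whichever of the 4 libraries was left out, at a limma adjusted p of 0.157 to 0.682, while the direction for A, B and E stayed negative in all 12 alternatives tried, in *thom* and in *cis*. Over these alternatives the limma adjusted p in *thom* spanned 7.67e-06 to 0.886 for A, 2.03e-07 to 0.964 for B and 0.00155 to 0.930 for E, and in *cis* 4.44e-08 to 0.929 for A and 1.09e-08 to 0.978 for B.

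**Figure D4:**
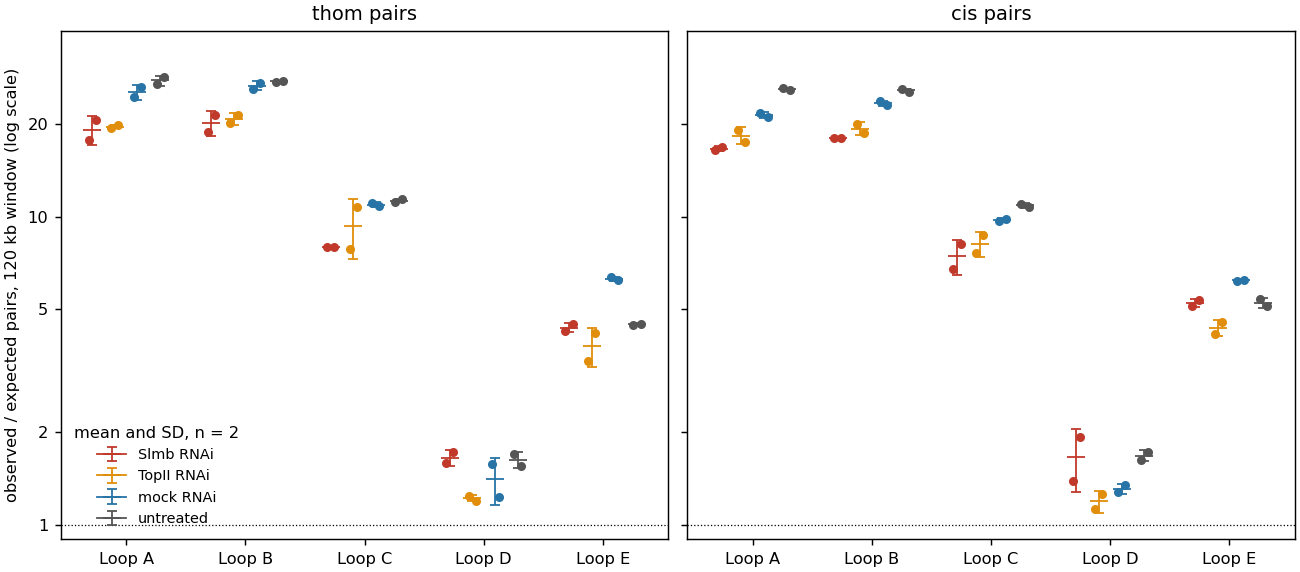
Observed over expected pairs in the 120 kb window (log scale) for each loop, with *thom* and *cis* in separate panels. Dots are single libraries and bars the mean and SD of 2 replicates for Slmb RNAi, TopII RNAi, mock RNAi and untreated cells. For A, B and C both knockdowns lie below mock RNAi in *cis*, and for E mock RNAi lies above the other 3 groups in both classes.

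The second comparison asked the same of TopII, which is known for untangling DNA duplexes. Loop E changed most. It had *thom* quotients of 3.41 and 4.19 in TopII RNAi, against 6.37 and 6.23 in mock RNAi, and *cis* quotients of 4.17 and 4.54 in TopII RNAi, against 6.19 and 6.25 in mock RNAi. The log2 change was −0.74 ± 0.124 in *thom* (limma adjusted p = 2.71e-05) and −0.51 ± 0.0929 in *cis* (limma adjusted p = 0.0267), with 8561 windows tested. It was the 1 loop of 5 to pass in either class, and the 0.0117% of windows called lower in *thom*, likewise 0.0117% in *cis*, were this window alone. A *thom* change as low as that of E was seen in 152 of 8556 other windows, whose median was 0.01, against a median of −0.36 over the 5 loops.

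The other loops were lower in TopII RNAi by less, and none passed. Loop A had *thom* quotients of 19.5 and 19.8 in TopII RNAi, against 24.4 and 26.3 in mock RNAi, a log2 difference of −0.37 (limma adjusted p = 0.125). Loop B had 20.1 and 21.4 in TopII RNAi, against 26.0 and 27.2 in mock RNAi, a log2 difference of −0.36 (limma adjusted p = 0.0785). Loop C had 7.88 and 10.8 in TopII RNAi, against 11.1 and 10.8 in mock RNAi, and D had a pooled quotient of 1.22 in TopII RNAi, against 1.39 in mock RNAi. In *cis* both TopII RNAi libraries lay below both mock RNAi libraries for all 5 loops, with log2 differences of −0.22 for A, −0.27 for B, −0.26 for C and −0.14 for D. The call of E in *thom* was lost without TopII RNAi replicate 1 (−0.58, limma adjusted p = 0.0744), and without TopII RNAi replicate 2 A and B were called as well (limma adjusted p = 0.0441 and 0.00277). In *cis* the call of E was lost whichever of the 4 libraries was left out, at a limma adjusted p of 0.0670 to 0.699. Over all alternatives the limma adjusted p of E spanned 5.47e-07 to 0.909 in *thom* and 0.000547 to 0.945 in *cis*, and in *thom* it spanned 0.00905 to 0.952 for A and 0.00271 to 0.952 for B.

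The shape of E differed by class between these groups, but its *thom* centre rests on few pairs. Within 12 kb of the centre, 16 *thom* pairs were counted in TopII RNAi and 37 in mock RNAi. Its *thom* centre was 1.55 ± 0.563 times the rim in TopII RNAi, against 2.29 ± 0.250 in mock RNAi, whereas its *cis* centre was 3.07 ± 0.566 times the rim in TopII RNAi, against 2.69 ± 0.291 in mock RNAi (SD, n = 2 replicates). Over *thom* and *cis* pairs together the ratios were 2.56 ± 0.208 in TopII RNAi and 2.54 ± 0.269 in mock RNAi. The *thom* replicates did not overlap, at 1.10 and 1.90 in TopII RNAi against 2.10 and 2.46 in mock RNAi, and the *cis* replicates did, but 2 libraries against 2 cannot give an exact two-sided permutation p below 0.33.

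The third comparison set mock RNAi against untreated cells, to see what the handling of the cells itself changed. Every mock RNAi library was also shallower than every untreated one, so that depth and handling cannot be told apart. The loops were moreover chosen for their excess in untreated cells, and such a choice favours lower values in mock RNAi. The log2 difference was negative for 4 of the 5 loops in *thom* and in *cis*. A fall is therefore given as a description, despite its p-value. Loop E was higher in mock RNAi, with *thom* quotients of 6.37 and 6.23 against 4.47 and 4.50 in untreated cells, a log2 change of 0.48 ± 0.0737 (limma adjusted p = 0.0189). It was the 1 loop called in *thom*, where 0.0346% of 8676 windows were called higher and 0.127% lower. In *cis* E had 6.19 and 6.25 in mock RNAi, against 5.39 and 5.13 in untreated cells, and its log2 difference of 0.24 did not pass (limma adjusted p = 0.0926). Loop A was lower in *cis*, with 21.7 and 21.1 in mock RNAi against 26.1 and 25.7 in untreated cells, a log2 change of −0.29 ± 0.0453 (limma adjusted p = 0.00416), among 0.0922% of windows called lower and 0.0346% called higher. Loop B was at −0.15 in *cis* (limma adjusted p = 0.143), and in *thom* A, B, C and D were at −0.15, −0.06, −0.06 and −0.22 on the log2 scale, with none called.

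Both of these calls failed where either untreated library was left out. The *thom* change of E was then 0.48 without untreated replicate 1 and 0.49 without untreated replicate 2 (limma adjusted p = 0.692 and 0.379), and the *cis* change of A was −0.28 and −0.30 (adjusted p of 1.00 in both cases). With only pairs within 20 kb of the anchors the *thom* change of E was −0.01, and with the expected number scaled by bin coverage the *cis* change of A was −0.04. Over all alternatives the limma adjusted p spanned 3.79e-05 to 0.993 for E in *thom* and 2.46e-10 to 1.00 for A in *cis*.

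The mock RNAi libraries serve as the control of both knockdowns, so the knockdown changes are not independent of each other or of the third comparison. For E this bears on the values, and they depend on the window. In the 120 kb window its *thom* quotients were 4.26 and 4.48 in Slmb RNAi and 3.41 and 4.19 in TopII RNAi. Untreated cells had 4.47 and 4.50, and mock RNAi stood apart at 6.37 and 6.23. Within 20 kb of the anchors mock RNAi had 9.44 and 10.6, beside 9.51 and 9.40 in untreated cells. Slmb RNAi, at 7.77 and 8.42, and TopII RNAi, at 4.59 and 6.84, lay below both. In *cis* in the 120 kb window TopII RNAi, at 4.17 and 4.54, lay below untreated cells, at 5.39 and 5.13. Slmb RNAi, at 5.15 and 5.38, did not. For A the order was different, with *thom* quotients of 17.7 and 20.6 in Slmb RNAi and 19.5 and 19.8 in TopII RNAi below 24.4 and 26.3 in mock RNAi, and 27.0 and 28.4 in untreated cells. No test between the knockdowns and untreated cells was run.

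**Figure D5:**
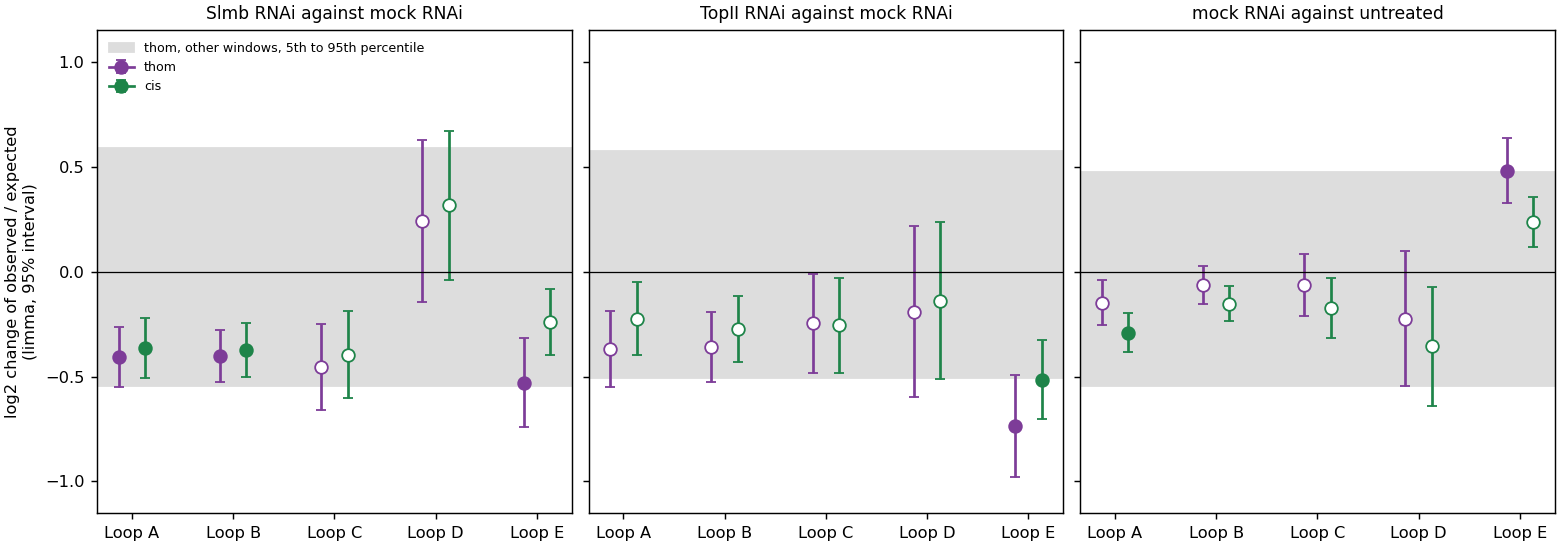
Log2 change of observed over expected pairs for each loop in the 3 comparisons, with *thom* and *cis* side by side and bars for the 95% interval from limma. Filled symbols passed an adjusted p of 0.05, and the grey band spans the 5th to 95th percentile of *thom* changes over the other windows; of the filled symbols, E in *thom* in TopII RNAi against mock RNAi lies lowest, at −0.74.

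The last question was whether *thom* contacts of a loop changed by another amount than its *cis* contacts. The *thom* change minus the *cis* change was tested in the same windows with limma, and 0 of 5 loops and 0% of windows were called in each of the 3 comparisons, in either direction. At an unadjusted p under 0.05 there was 1 loop in Slmb RNAi against mock RNAi, 0 in TopII RNAi against mock RNAi and 2 in mock RNAi against untreated cells, while 5.48%, 4.78% and 5.09% of the other windows were under it in these comparisons. In Slmb RNAi the log2 difference was −0.04 for A, with a 95% interval of −0.24 to 0.15, and −0.03 for B, with an interval of −0.20 to 0.14. For E it was −0.29, with an interval of −0.54 to −0.03 (limma adjusted p = 0.878). In TopII RNAi it was −0.14 for A (−0.32 to 0.03), −0.08 for B (−0.24 to 0.07) and −0.22 for E (−0.47 to 0.02). The intervals of C and D were wider in both knockdowns, reaching from −0.60 to 0.46 for D in Slmb RNAi, so that unequal changes of that size were not detectable at this depth. In mock RNAi against untreated cells the difference was positive for all 5 loops, with a median of 0.13 against −0.01 over the other windows. It was 0.14 for A (0.02 to 0.26) and 0.24 for E (0.07 to 0.41), both with a limma adjusted p of 0.927, and 0.09 for B, 0.11 for C and 0.13 for D.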

How the data were processed

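Hi-C libraries of 8 samples were analysed, and RNA-seq was not used here. According to the labels and the study's methods, the authors trimmed reads, mapped them by bwa mem (0.7.15-r1140) onto a hybrid dm3 genome made of both haplotypes, and obtained unique pairs with pairsamtools (0.0.1-dev). Each deposited line holds 1 pair, with positions, strands and the aligner's mapping quality score of either side; nothing is normalized, and no minimum score was set here. Pairs were counted in 4 kb bins, without bins under 10% of the median coverage of their arm. Log2 quotients, with a pseudocount of 0.5, entered limma (3.58.1, trended eBayes, R 4.3.3), and p-values were adjusted by Benjamini-Hochberg over windows with at least 10 expected pairs in both classes. The fit was checked on simulated counts in which no loop window was changed. That check therefore does not measure how well changes at the loops are found. Python (3.11.15) with NumPy (2.4.6), SciPy (1.17.1) and matplotlib (3.10.9) served for the rest. Peaks were at least 64 kb apart and needed an adjusted Poisson p under 0.01, 1.5 times the local background and 3 adjoining pixels. Named features were the 5 loops, called peaks over 500 kb and those next under that limit. The members and all lists were chosen with earlier results of these data known.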

Additional observations from a re-analysis of the deposited data

How the results depend on the processing

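The alternatives were a window of 20 kb, coverage-scaled expectation, mapping quality of at least 30, same-strand pairs, a pseudocount of 5, no minimum expected count, a replicate block, 1 fit of all 8 libraries and leaving out each library, besides a trend on the mean quotient, the full-ring peak background and coverage-scaled anchor contacts, which were chosen after seeing the data. The cause of each shift was not tested. The number of loops called in *thom* in Slmb RNAi against mock RNAi, 3, was 0 with the 20 kb window, 0 with no minimum and 0 with the trend on the quotient, and 0 to 3 with a library left out; a pseudocount of 5 gave 4 by adding C, and same-strand pairs gave 3 with C in place of E. In *cis*, 2 were called, with 0 for the 20 kb window, 0 for same-strand pairs, 0 with no minimum, 3 with the trend on the quotient, which added C, and 0 to 0 with a library left out. In TopII RNAi against mock RNAi, 1 *thom* call became 0 with the 20 kb window, 0 with same-strand pairs, 0 with the trend on the quotient, 3 with coverage scaling and 3 with all 8 libraries, and 0 to 3 with a library left out; the 1 *cis* call became 0 with the 20 kb window, no minimum or the trend on the quotient, and 0 to 0 with a library left out. In mock RNAi against untreated cells, 1 *thom* call became 0 with the 20 kb window, mapping quality of at least 30, same-strand pairs, no minimum, all 8 libraries or the trend on the quotient, 3 with a pseudocount of 5, and 0 to 3 with a library left out; 1 *cis* call became 0 with the 20 kb window, mapping quality of at least 30, same-strand pairs or all 8 libraries, 2 with coverage scaling, 3 with a pseudocount of 5, 3 with the replicate block, and 0 to 4 with a library left out. The *thom* minus *cis* count in that comparison was 0 to 1 with a library left out.

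Under the replicate block the same loops were called in the other comparisons, and *cis* calls of B and E joined A in mock RNAi against untreated cells; same-numbered libraries did not deviate together (r from −0.0081 to 0.0299 across windows). Directions turned in few cases on the log2 scale: D in *thom* in Slmb RNAi (−0.00012) and in *cis* in TopII RNAi (0.032) with same-strand pairs; in mock RNAi against untreated cells, E in *thom* (−0.012) and C in *cis* (0.020) with the 20 kb window, C in *thom* with same-strand pairs (0.0020), and A and B in *thom* (0.10, 0.14) and B in *cis* (0.048) with coverage scaling. The *thom* minus *cis* difference turned for C in TopII RNAi with the 20 kb window (−0.15), same-strand pairs (−0.025) and a pseudocount of 5 (−0.0011), and in mock RNAi against untreated cells with the 20 kb window for C (−0.079), D (−0.37) and E (−0.078). With a library left out it spanned −0.14 to 0.048 for A, −0.12 to 0.060 for B, −0.19 to 0.072 for C and −0.29 to 0.14 for D in Slmb RNAi, −0.18 to 0.012 for B, −0.12 to 0.14 for C and −0.26 to 0.16 for D in TopII RNAi, and −0.080 to 0.34 for D in mock RNAi against untreated cells. With a mapping quality of at least 30 no loop kept the minimum expected count in either knockdown comparison, so that alternative gave no value there. Leaving out a library leaves 1 sample in a group, whose spread is assumed to be that of the other group. Depth limits D most, with 93 to 144 pairs per class in each RNAi group.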
